A study of Mus musculus with 43 samples.

Results

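Keratins, claudins and small proline-rich genes were followed through 43 mouse lung libraries. The members were every gene of the count table whose symbol is Krt, Cldn or Sprr followed directly by a number and at most 1 further letter. This gave 89 of 21938 genes, of which 53 are keratins, 25 are claudins and 11 are small proline-rich genes. A further 12 symbols that carry a copy number after the letter (such as Sprr2a1 and Cldn34c1) fell outside the rule; they held 1708 counts in all libraries together.

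The study measured polyA RNA of the inferior lung lobe by single-end sequencing in 3 groups. Bleomycin mice that received nintedanib gave 17 libraries, bleomycin mice that received the vehicle of nintedanib gave 16, and control mice that received vehicle gave 10. Bleomycin damages DNA and is given to rodents as a model of fibrosing lung injury. Nintedanib is a receptor tyrosine kinase inhibitor in clinical use for pulmonary fibrosis. The labels give no strain, sex, age, dose, route or sampling time, and they do not say which vehicle the control mice received, so vehicle and bleomycin cannot be told apart in comparisons with control mice. Nothing in the labels says more about whether libraries came from separate animals, so each is counted as 1 mouse and p-values measure the spread between these libraries.

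Keratins form the intermediate filaments of epithelial cells from pairs of a type I and a type II protein. Krt8 and Krt18 are the pair of simple epithelia, Krt5 and Krt14 that of basal cells, the stem cells of the airway lining. Claudins are the membrane proteins that set which ions and molecules pass through tight junctions, and small proline-rich proteins are cross-linked into the cornified envelope of stratified epithelia. After injury of the mouse alveolus, type 2 cells on their way to type 1 cells pass through a transitional state known for high Krt8, Krt18, Krt7, Krt19, Cldn4 and Sprr1a. Cells with Krt5 can also appear in the injured distal lung, and the intact conducting airway carries Krt5 and Krt15 in its basal cells.

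Depth was 13324549 to 18723538 counts in nintedanib mice, 13175246 to 19111457 in vehicle mice and 13138281 to 17812995 in control mice. The tissue label held in every library, since the lowest level of Sftpc, the surfactant protein of type 2 cells, was 8790 CPM (a gene's counts scaled to the library total) and the lowest of Ager, a type 1 cell marker, was 1270 CPM, both in a vehicle mouse. Fat was unevenly present: Adipoq, an adipocyte hormone, reached at least 1 CPM in 5 of 17 nintedanib, 0 of 16 vehicle and 8 of 10 control libraries. Library names fall into 3 number series of 33, 4 and 6 libraries, whose meaning the labels do not state. In bulk lung RNA, fewer cells of a type and less RNA per cell cannot be told apart, which applies to every level given here.

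Of the 89 members, 29 had enough counts to be tested, namely 16 keratins, 12 claudins and Sprr1a. Of these, 20 lay above the level equal to 10 counts in a library of median size (0.602 CPM) in every library, while Cldn2, Krt1, Krt14, Krt15, Krt17, Krt222, Krt4, Krt5 and Sprr1a passed through some of the libraries only. Sprr1a lay above that level in 17 nintedanib, 16 vehicle and 0 control libraries, Krt17 in 6, 9 and 0 and Cldn2 in 17, 16 and 4. Krt14 lay above it in 17, 12 and 6, Krt4 in 8, 11 and 2 and Krt5 in 7, 10 and 3. Sprr1a and Krt17 thus entered the test through bleomycin libraries alone. Cldn2, Krt14, Krt4 and Krt5 entered it mainly through bleomycin libraries. The place of all these genes among members that rose is not independent of the filter. The other 60 failed the filter; 8 of them had no count in any library and 6 (Cldn11, Cldn6, Krt13, Krt20, Krt6a and Krt83) reached 1 CPM in at least 1 library. The 10 small proline-rich members other than Sprr1a summed to 12 counts over all libraries, so Sprr1a stood for the family among the members. Outside the rule, Sprr2a1, Sprr2a2 and Sprr2a3 had 8, 28 and 21 counts in nintedanib mice. They had 3, 13 and 43 in vehicle mice and 1, 0 and 0 in control mice. Differences in these few counts were not tested. Few genes made up each family: Krt8, Krt18, Krt19 and Krt7 held a median of 90.2% of keratin counts in nintedanib mice, 90.9% in vehicle mice and 82.7% in control mice. Cldn18, Cldn5 and Cldn3 held 90.4%, 90.9% and 91.7% of claudin counts in nintedanib, vehicle and control mice.

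Scaled to exon length as TPM, the leading members in bleomycin lungs were Cldn18, with a median of 906 TPM in nintedanib, 1050 in vehicle and 649 in control mice, and Krt8, with 674, 745 and 360 TPM in the same order. Krt19 (665, 639 and 439 TPM), Krt18 (534, 620 and 328 TPM) and Cldn5 (587, 591 and 1200 TPM) were at similar levels per length in the bleomycin groups. Krt7 is not placed in this order, since its summed exon length of 7049 bases (1958 for Krt8) understates its TPM. In control lungs the order was led by Cldn5, the claudin of endothelial junctions, ahead of Cldn18. Cldn4 stood at 53.0, 87.1 and 17.1 TPM and Sprr1a at 21, 21.5 and 1.08 TPM in nintedanib, vehicle and control mice. The basal keratins were scarce, with group medians of Krt5 of 0.261, 1.58 and 0.288 TPM.

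Counts were tested gene by gene with edgeR's quasi-likelihood F test over all 14836 tested genes, with Benjamini-Hochberg adjusted p under 0.05 as threshold; differences are log2 fold changes with standard errors. In vehicle mice against control mice, 15 of the 29 tested members rose and 7 fell, where over all genes tested 57.9% changed, 29.5% up and 28.3% down. In nintedanib mice against control mice, 15 rose and 4 fell, where 53.2% of all genes changed, 28.1% up and 25.1% down. These comparisons share the control mice. In nintedanib mice against vehicle mice, 2 members rose and 0 fell, where 7.31% of all genes changed, 3.21% up and 4.1% down. At an unadjusted p under 0.05, 4 members were higher (Cldn10, Cldn12, Cldn15 and Krt15) and 3 were lower (Cldn4, Krt14 and Krt18), where 11.5% of all genes tested were higher and 12.9% lower by the same cutoff. DESeq2 called 2 members higher, and 2 lower, Cldn4 and Krt14. The median difference of the 29 tested members was 0.20 for vehicle minus control, 0.26 for nintedanib minus control and 0.03 for nintedanib minus vehicle, where the median of all genes was -0.0061, -0.00518 and -0.00215.

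**Figure D1:**
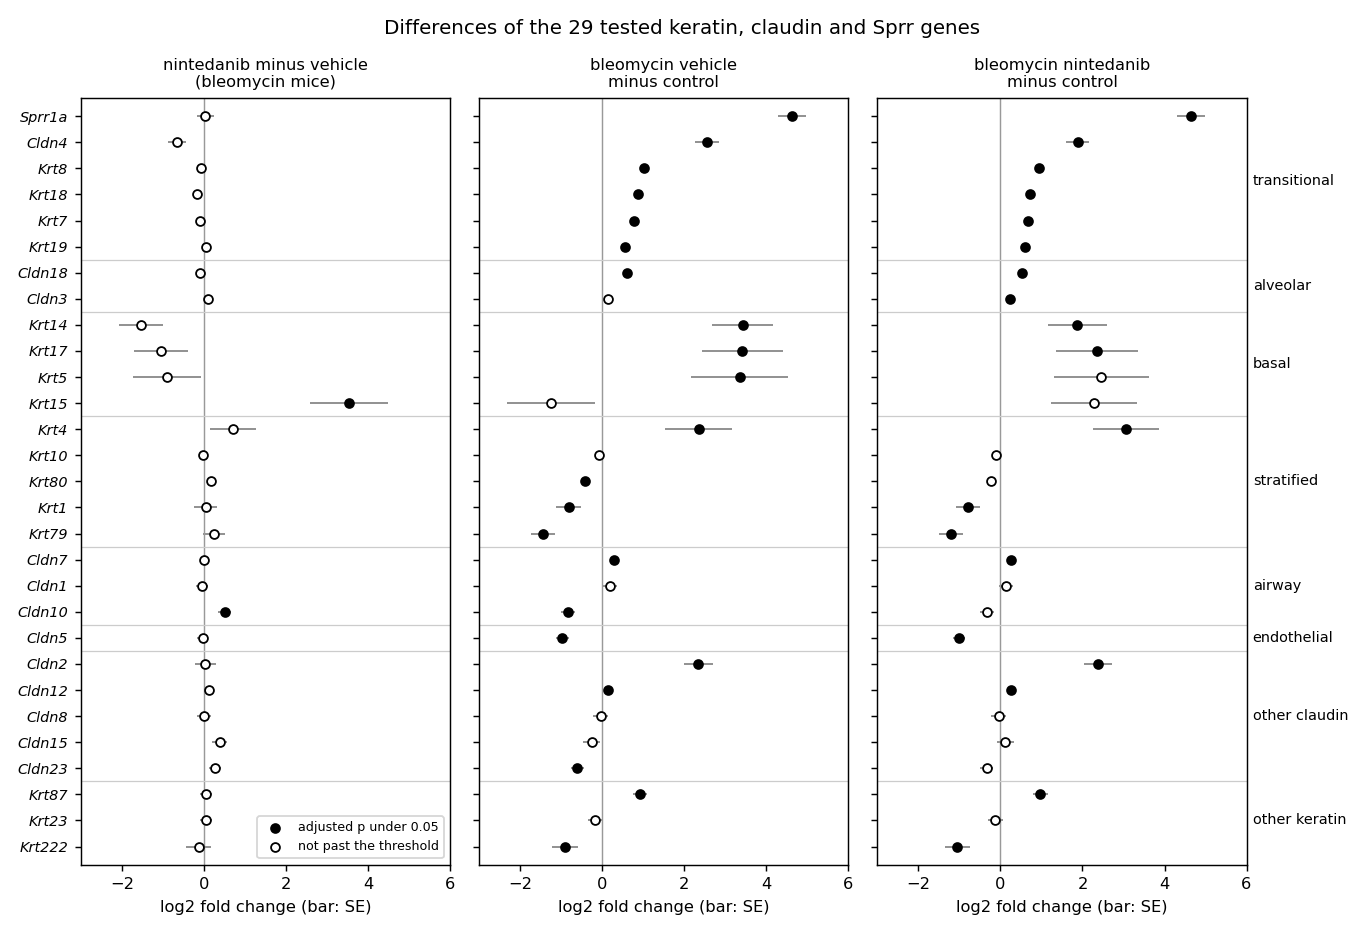
Log2 fold change with its standard error for the 29 tested members, ordered by role, in 3 comparisons (x axis, log2 units; filled points have an adjusted p under 0.05). The transitional genes lie right of 0 in both comparisons with control mice, led by Sprr1a at 4.62 and 4.65, and near 0 between nintedanib and vehicle mice except Cldn4 at -0.66.

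The 6 transitional members rose together in bleomycin lungs. Sprr1a, Cldn4, Krt8, Krt18, Krt7 and Krt19 were all higher in vehicle mice than in control mice and all higher in nintedanib mice than in control mice. None passed the threshold between nintedanib and vehicle mice. Sprr1a, a cornified envelope precursor also found in injured neurons and heart, changed most.

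The promoters of 4 of the 6 transitional members are shown because these members rose against control mice by very unequal amounts. The table's window for Krt7 lies inside the GENCODE gene and is not printed, and Krt19 is only named. They are RefSeq sequences of GRCm38.p6, 5′ to 3′ on the strand of the gene, taken from the table's 250 bases before each start and cut where they reach the GENCODE gene start. Capitals mark TGANTCA, the core letters bound by AP-1 factors such as Fosl1, and TATAAA. The stretches are 3:92485896-92486131, minus strand, for Sprr1a, 5:134946935-134947184, minus strand, for Cldn4, 15:102004483-102004592, minus strand, for Krt8 and 15:102027966-102028179, plus strand, for Krt18.
Sprr1a: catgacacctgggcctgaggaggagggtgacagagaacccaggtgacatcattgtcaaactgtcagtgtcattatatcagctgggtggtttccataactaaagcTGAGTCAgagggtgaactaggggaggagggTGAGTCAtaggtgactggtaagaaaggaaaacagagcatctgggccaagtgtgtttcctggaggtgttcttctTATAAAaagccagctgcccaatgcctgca
Cldn4: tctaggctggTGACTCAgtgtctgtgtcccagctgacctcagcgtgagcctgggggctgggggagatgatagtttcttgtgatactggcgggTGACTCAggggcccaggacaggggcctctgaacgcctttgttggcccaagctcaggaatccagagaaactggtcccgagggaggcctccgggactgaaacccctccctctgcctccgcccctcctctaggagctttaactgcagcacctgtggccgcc
Krt8: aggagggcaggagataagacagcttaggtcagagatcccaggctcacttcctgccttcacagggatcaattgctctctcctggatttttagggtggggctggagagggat
Krt18: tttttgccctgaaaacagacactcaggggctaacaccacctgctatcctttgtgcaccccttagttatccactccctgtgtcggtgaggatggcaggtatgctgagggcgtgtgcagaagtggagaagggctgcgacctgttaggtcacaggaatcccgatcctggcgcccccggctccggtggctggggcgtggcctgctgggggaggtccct
Sprr1a held 2 copies of TGANTCA and 1 of TATAAA, and Cldn4 held 2 copies of TGANTCA. Neither motif stood in the stretches of Krt8 and Krt18, nor in the Krt7 window. Over the 250 bases before the start, searched on both strands, TGANTCA stood in 6.75% and TATAAA in 12.4% of 32851 promoters. Of 68 members with a promoter in the table, 13 held TGANTCA, of which 8 are other small proline-rich genes at or near no counts here. The grainyhead letters AACCNGTT, in 1.79% of promoters, stood in Cldn5 and in none of the 5 transitional members with a window in the table. These are matches of letters only.

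Sprr1a (chromosome 3, 92483952 to 92485895) lay at 2.19 to 9.88 CPM with a median of 5.57 in nintedanib mice, at 2.17 to 11.4 with a median of 5.40 in vehicle mice, and at 0.0553 to 0.407 with a median of 0.264 in control mice. Every bleomycin mouse of either group was above every control mouse. The log2 fold change was 4.65 ± 0.340 for nintedanib over control (adjusted p = 1.5e-14) and 4.62 ± 0.341 for vehicle over control (adjusted p = 1.7e-14). Between nintedanib and vehicle mice it was 0.03, with a 95% interval of -0.37 to 0.43.

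Cldn4 (chromosome 5, 134945119 to 134946934), a claudin that tightens alveolar junctions after injury, lay at 15.4 to 77.4 CPM with a median of 30.6 in nintedanib mice, at 17.7 to 130 with a median of 47.0 in vehicle mice and at 4.35 to 13.1 with a median of 9.55 in control mice. The bleomycin groups overlapped each other over most of their range and stood clear of control. The log2 fold change was 1.88 ± 0.286 for nintedanib over control (adjusted p = 5.6e-07) and 2.54 ± 0.294 for vehicle over control (adjusted p = 1.6e-09). For nintedanib over vehicle it was -0.66 ± 0.223, with 14 of 17 nintedanib mice below the vehicle median and an adjusted p of 0.059. That value lay close to the threshold: DESeq2 gave an adjusted p of 0.046. Over 33 exclusions of a single mouse the edgeR adjusted p was 0.018 to 0.14, and 8 of them brought it under the threshold (0.018 to 0.043). The neighbour Cldn3, 39.3 kb away on chromosome 5, moved little.

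Krt8 (chromosome 15, 101996698 to 102004482) lay at 306 to 523 CPM with a median of 412 in nintedanib mice, at 284 to 607 with a median of 423 in vehicle mice and at 189 to 268 with a median of 216 in control mice. Krt18 (chromosome 15, 102028180 to 102032027), its partner gene 23.7 kb away, lay at 190 to 273 with a median of 236, at 176 to 337 with a median of 256 and at 120 to 158 with a median of 146 CPM in nintedanib, vehicle and control mice. For both genes no bleomycin mouse reached down to the control range. Krt8 was 1.91-fold higher in nintedanib mice and 2.02-fold higher in vehicle mice than in control mice, log2 fold changes of 0.94 ± 0.101 (adjusted p = 4.1e-10) and 1.02 ± 0.103 (adjusted p = 6.4e-11). Krt18 rose by 0.71 ± 0.084 (adjusted p = 3e-09) and 0.88 ± 0.085 (adjusted p = 2.4e-11) in the same comparisons. Between nintedanib and vehicle mice Krt18 stood at -0.17 ± 0.072 (adjusted p = 0.14, edgeR) and Krt8 at -0.08, with a 95% interval of -0.25 to 0.09. Of 33 single exclusions, only that of vehicle replicate 13 brought Krt18 under the threshold (0.048), and the highest adjusted p was 0.23.

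Krt7 and Krt19, keratins of simple ducts and of the transitional state, changed less. Krt7 (chromosome 15, 101411043 to 101430313) lay at 502 to 910 CPM with a median of 666 in nintedanib mice, at 490 to 995 with a median of 760 in vehicle mice and at 391 to 460 with a median of 444 in control mice. Krt19 (chromosome 11, 100140810 to 100148665) lay at 338 to 467 with a median of 375, at 251 to 507 with a median of 369 and at 211 to 296 with a median of 259 CPM in the same order. The groups with bleomycin stood clear of control except for Krt19 in vehicle mice, where 2 of 16 mice fell within the control range. Krt7 rose by 0.68 ± 0.096 and 0.78 ± 0.097, and Krt19 by 0.60 ± 0.087 and 0.56 ± 0.088, in nintedanib and vehicle mice against control mice, with adjusted p of at most 8.1e-07 (edgeR). Among all genes tested, 3.7% lay wholly above the control range in vehicle mice and 4.31% in nintedanib mice; among the tested members these were Krt8, Krt18, Krt7, Cldn4 and Sprr1a in both comparisons, Cldn2 in vehicle mice and Krt19 in nintedanib mice.

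**Figure D2:**
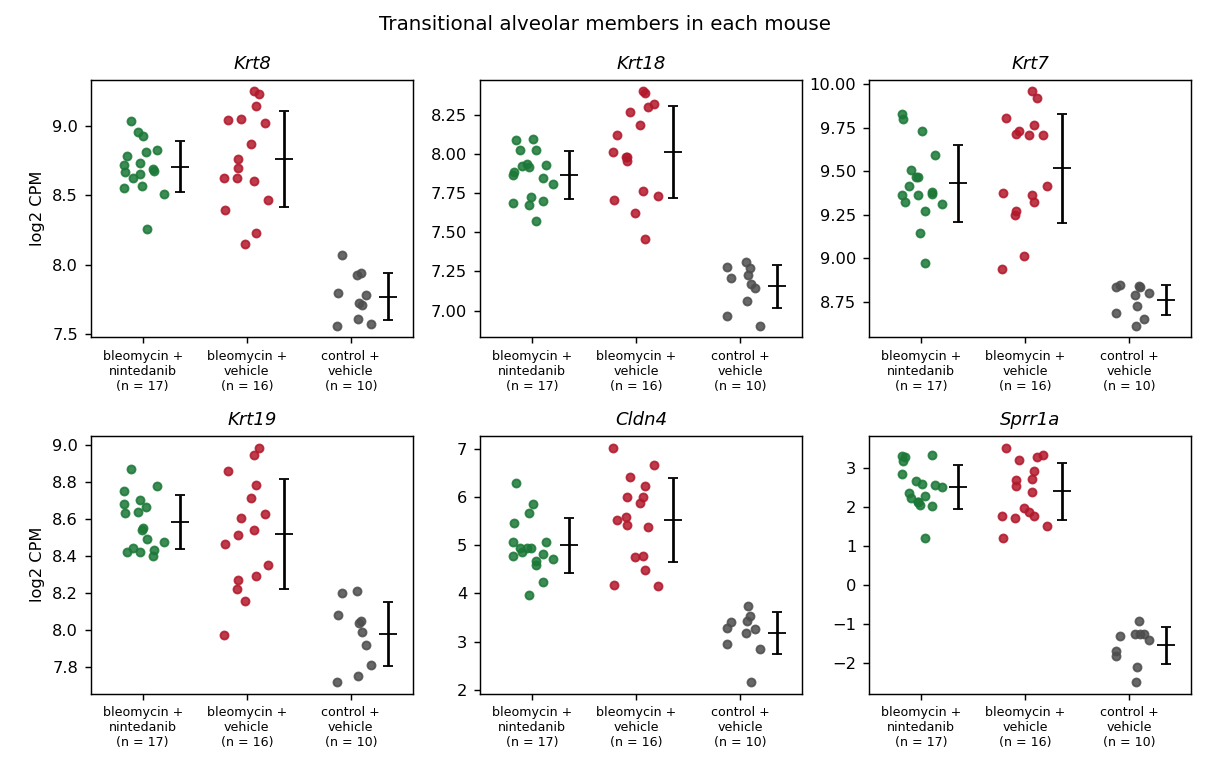
Log2 CPM (y axis) of the 6 transitional members in each mouse of 3 groups (x axis); points are mice, and the bar beside them is the mean ± SD. Every bleomycin mouse lies above every control mouse for Krt8, Krt18, Krt7, Cldn4 and Sprr1a, and the vehicle points spread further than the nintedanib points, with an SD of 0.35 against 0.18 for Krt8.

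The spread between mice was unequal. In log2 CPM the SD of Krt8 was 0.18 in nintedanib, 0.35 in vehicle and 0.17 in control mice, that of Krt18 0.15, 0.29 and 0.14, and that of Krt19 0.14, 0.30 and 0.17. Vehicle mice had the widest spread for all 6 transitional members; the difference in spread was not tested. Within vehicle mice Krt8 went with each of the other 5 members (permutation test with 100000 resamples, 15 relations in all, Benjamini-Hochberg adjusted). Pearson's r was 0.958 with Krt18 (rho 0.953, adjusted p = 0.00015, the smallest possible), 0.818 with Krt7 (rho 0.806, adjusted p = 0.0014), 0.796 with Krt19 (rho 0.800, adjusted p = 0.0014), 0.790 with Sprr1a (rho 0.765, adjusted p = 0.0014) and 0.637 with Cldn4 (rho 0.618, adjusted p = 0.017). Without the 2 mice farthest from the median of Krt8, r was 0.615 to 0.953. Within nintedanib mice Krt18 alone passed the same permutation test (r 0.796, rho 0.816, adjusted p = 0.0012; 0.706 without the 2 farthest mice), and r was 0.359 to 0.504 for the other 4 members. Within control mice Krt18 (r 0.780, rho 0.782, adjusted p = 0.017; 0.865 without the 2 farthest) and Krt19 (r 0.895, rho 0.891, adjusted p = 0.0017; 0.842 without them) passed. Whether the groups differ in these relations was not tested.

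**Figure D3:**
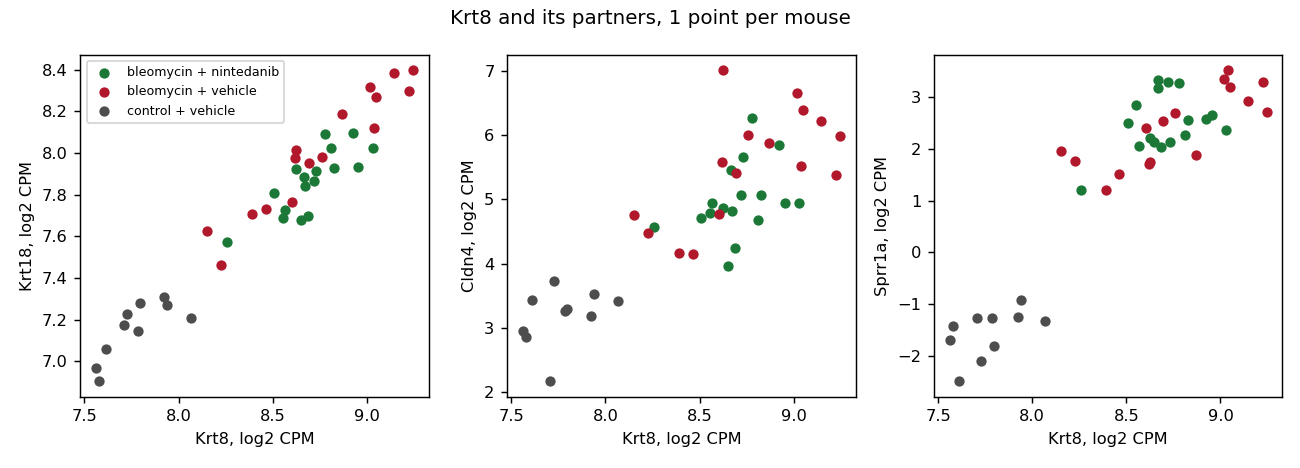
Krt8 (x axis, log2 CPM) against Krt18, Cldn4 and Sprr1a (y axes, log2 CPM), 1 point per mouse, coloured by group. The vehicle points extend along a line with Krt18 (r 0.958), and the control points form a separate cloud at lower levels of all 4 genes.

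Other genes of the transitional state moved with these members. Of 14 listed, 12 rose and 0 fell in vehicle mice against control mice, with a median log2 fold change of 1.56, and 13 rose in nintedanib mice, with a median of 1.3. Among all genes tested, 29.5% rose in vehicle and 28.1% in nintedanib mice. Lcn2, an iron-binding defence protein, rose by 2.94 ± 0.225 and 2.99 ± 0.226, Gdf15, a stress cytokine, by 2.71 ± 0.195 and 2.51 ± 0.195, Areg, an EGF receptor ligand, by 2.44 ± 0.284 and 2.47 ± 0.286, and Sfn, a p53 target, by 1.33 ± 0.213 and 1.72 ± 0.218 in nintedanib and vehicle mice (edgeR, adjusted p of at most 1.4e-06). Between nintedanib and vehicle mice 0 of 14 passed. Leaving out the Adipoq libraries, 7 of 14 rose in nintedanib mice and 9 in vehicle mice against control mice. That setting leaves 2 control mice and gave fewer calls over all genes, 3297 of 15276 in nintedanib and 3654 in vehicle mice. With all libraries these calls were 7888 and 8585 of 14836. The summed level of the list was 1340 to 2520 CPM in nintedanib, 1290 to 2800 in vehicle and 676 to 800 in control mice.

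Markers of other cells that carry simple keratins were set beside these values. Of 5 mesothelial markers only Msln rose, by 1.43 ± 0.258 in nintedanib and 1.22 ± 0.258 in vehicle mice, while Upk3b stood at 0.21 (adjusted p = 0.47) and -0.12 (adjusted p = 0.68) by edgeR's test. Their sum was 293 to 1100 CPM in nintedanib, 91.6 to 800 in vehicle and 262 to 491 in control mice. The type 2 cell list summed to 20100 to 46600, 12800 to 46900 and 22400 to 29600 CPM, and the type 1 list to 3910 to 6280, 2320 to 6490 and 4410 to 4940 CPM. The part of these cells in the keratin differences was not tested. Without the Adipoq libraries, which leaves 12 nintedanib, 16 vehicle and 2 control mice, all 6 transitional members still passed in both comparisons with control, and Msln passed in neither.

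The alveolar claudins rose less. Cldn18 (chromosome 9, 99689461 to 99717267), the main claudin of alveolar epithelium, lay at 974 to 1700 CPM with a median of 1260 in nintedanib mice, at 643 to 1720 with a median of 1400 in vehicle mice and at 827 to 1030 with a median of 901 in control mice. The groups overlapped through 1 mouse of each bleomycin group. The log2 fold change was 0.51 ± 0.094 for nintedanib over control (adjusted p = 1.4e-05) and 0.60 ± 0.095 for vehicle over control (adjusted p = 9.8e-07, edgeR). Without the Adipoq libraries it was 0.49 (adjusted p = 0.084) and 0.51 (adjusted p = 0.064). Cldn3 (chromosome 5, 134986214 to 134987472) rose by 0.24 ± 0.066 in nintedanib mice (adjusted p = 0.0025) and stood at 0.14 ± 0.067 in vehicle mice (adjusted p = 0.061; 0.031 to 0.05 on leaving out vehicle replicate 2, 4 or 11). Of the other genes of these cells, the type 1 list gave 4 higher and 1 lower of 6 in nintedanib mice and 2 higher and 1 lower in vehicle mice, and the type 2 list gave 5 and 2 higher of 6. Among all genes tested, 28.1% were higher and 25.1% lower in nintedanib and 29.5% and 28.3% in vehicle mice. With the Adipoq libraries left out the list counts were 1 higher and 0 lower for the type 1 list and 0 higher for the type 2 list in each comparison.

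Cldn5 (chromosome 16, 18776847 to 18778262), the claudin that seals endothelial junctions, was the most abundant member to fall. It lay at 189 to 407 CPM with a median of 265 in nintedanib mice, at 132 to 477 with a median of 261 in vehicle mice and at 417 to 681 with a median of 538 in control mice. All nintedanib mice were below all control mice, as for 3.07% of genes tested, and 2 of 16 vehicle mice fell within the control range; 1.84% of genes tested lay wholly below it in vehicle mice. It fell by 1.01 on the log2 scale (standard error 0.149, adjusted p = 3.2e-07) in nintedanib mice and by 0.97 (standard error 0.151, adjusted p = 7.3e-07) in vehicle mice. The 5 listed endothelial genes all fell in both comparisons, Cdh5, the endothelial cadherin, by 0.67 and 0.78, and all 5 also fell without the Adipoq libraries. Among all genes tested, 25.1% fell in nintedanib and 28.3% in vehicle mice. The sum of the 5 genes was 1960 to 3060, 1420 to 3730 and 3640 to 4900 CPM in nintedanib, vehicle and control mice. Between nintedanib and vehicle mice Cldn5 differed by -0.04, with a 95% interval of -0.30 to 0.22.

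The airway claudins did not move together. Cldn10 (chromosome 14, 118787908 to 118875489), which in mouse lung marks secretory club cells, lay at 8.99 to 20.6 CPM with a median of 13.7 in nintedanib mice, at 4.83 to 21.5 with a median of 9.42 in vehicle mice and at 11.1 to 23.4 with a median of 18.4 in control mice. All 3 groups overlapped, with vehicle mice lowest by median. It rose by 0.50 ± 0.154 in nintedanib mice against vehicle mice (15 of 17 above the vehicle median, adjusted p = 0.038) and fell by 0.84 (standard error 0.174, adjusted p = 7.5e-05) in vehicle mice against control mice; in nintedanib mice against control it stood at -0.34 ± 0.172 (adjusted p = 0.094, edgeR; 0.037 without control replicate 5). The first of these calls was lost on leaving out any of 16 single mice (0.45 to 0.50, adjusted p 0.051 to 0.068), and without the Adipoq libraries it was 0.43 (adjusted p = 0.18); the fall against control was then -0.60 (adjusted p = 0.22).

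A list of 8 genes of secretory airway cells was set beside Cldn10. All 8 fell in vehicle mice against control mice, Scgb1a1, the club cell secretoglobin, by 1.11 ± 0.163, and 5 of 8 (Bpifa1, Bpifb1, Muc5b, Reg3g and Scgb3a1) passed as higher in nintedanib mice than in vehicle mice. For each of these 5 genes, 4 or 5 of 17 nintedanib mice were above the highest vehicle mouse. Bpifa1, a secreted airway defence protein, stood at 2360, 1380, 368 and 1120 CPM in nintedanib replicates 1, 7, 8 and 14, which all held Adipoq, and at most at 33 CPM in the other nintedanib mice, with 8 of 17 above the vehicle median. When all Adipoq libraries were left out, 0 of 8 passed between nintedanib and vehicle mice (Bpifa1 0.28, adjusted p = 0.86; Reg3g 0.25, adjusted p = 0.88; edgeR), and against control mice only the fall of Scgb1a1 in vehicle mice did. The nintedanib mice with the most Cldn10, replicates 16 and 2 at 20.6 and 19.4 CPM, had 0 and 0.527 CPM of Bpifa1 and no count of Reg3g. Replicates 1, 7, 8 and 14 had 18.4, 17.7, 16.5 and 11.6 CPM of Cldn10. Its median was 16.5 CPM in the 5 nintedanib mice with Adipoq and 12.6 in the 12 without. A relation of Cldn10 with these genes across mice was not tested. Their sum was 9060 to 21700 CPM in nintedanib, 5200 to 20500 in vehicle and 17300 to 31500 in control mice. The 6 ciliated cell genes gave 4 lower in nintedanib and 6 lower in vehicle mice against control mice, and 0 in either without the Adipoq libraries. Among all genes tested, 25.1% fell in nintedanib and 28.3% in vehicle mice. Calls over all genes were also fewer without the Adipoq libraries, which leaves 2 control mice. They went from 7888 to 3297 in nintedanib and from 8585 to 3654 in vehicle mice against control mice. Between nintedanib and vehicle mice they went from 1084 to 525. Cldn7, a claudin of the basolateral membrane found through airway and alveolar epithelium, rose by 0.26 ± 0.069 in nintedanib mice (adjusted p = 0.0013) and 0.28 ± 0.069 in vehicle mice (adjusted p = 0.00082). Cldn1, a barrier claudin, lay at 4.66 to 17.3 CPM in nintedanib, 5.71 to 16.6 in vehicle and 6.29 to 12.3 in control mice and passed in no comparison (log2 fold changes of 0.14 and 0.20 against control, adjusted p 0.52 and 0.34, edgeR).

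**Figure D4:**
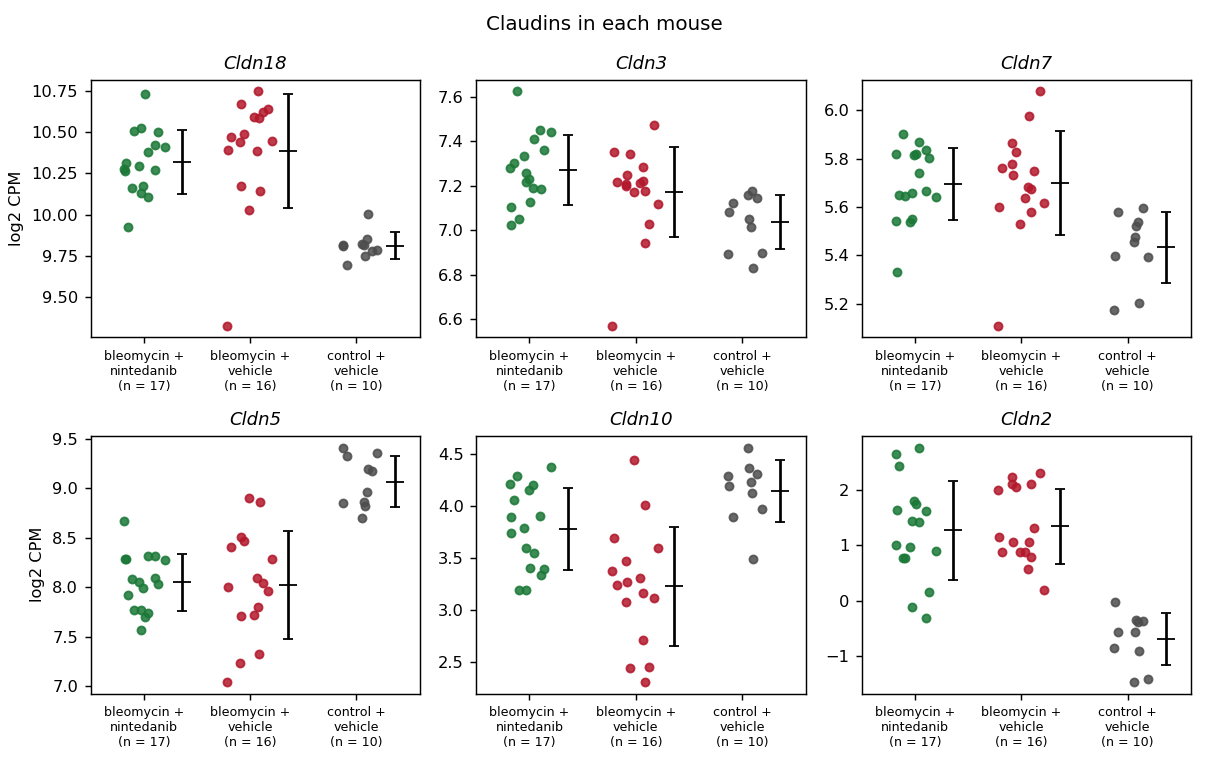
Log2 CPM (y axis) of 6 claudins in each mouse of 3 groups (x axis); points are mice, and the bar beside them is the mean ± SD. Cldn18 and Cldn2 lie higher and Cldn5 lower in bleomycin mice than in control mice, and 1 vehicle mouse is lowest for Cldn18, Cldn3, Cldn7 and Cldn5.

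The basal keratins rose in some bleomycin mice and not in others. Krt5 (chromosome 15, 101707070 to 101712898) lay at 0 to 34.4 CPM with a median of 0.189 in nintedanib mice, at 0 to 60.4 with a median of 1.05 in vehicle mice and at 0 to 3.39 with a median of 0.194 in control mice. It had no count in 5 of 17 nintedanib, 3 of 16 vehicle and 5 of 10 control mice and reached 1 CPM in 6, 8 and 2 mice. The groups overlapped from 0 upward. The log2 fold change was 2.46 ± 1.16 for nintedanib over control (adjusted p = 0.070) and 3.35 ± 1.18 for vehicle over control (adjusted p = 0.014, edgeR). The vehicle call rested on replicate 4, the mouse with 60.4 CPM: without it the value was 2.32 (adjusted p = 0.069). The nintedanib value was 1.40 (adjusted p = 0.28) without nintedanib replicate 1, the mouse with 34.4 CPM. Without control replicate 7, the control mouse with 3.39 CPM, it was 3.34 (adjusted p = 0.032), and the vehicle value was 4.24 (adjusted p = 0.0069).

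Krt14 (chromosome 11, 100203162 to 100207548), the partner of Krt5, lay at 0.760 to 10.6 CPM with a median of 2.08 in nintedanib mice, at 0.0595 to 61.4 with a median of 2.17 in vehicle mice and at 0.291 to 1.47 with a median of 0.723 in control mice. All 17 nintedanib mice were above the control median, against 11 of 16 vehicle mice, while the highest values were in vehicle mice. The log2 fold change was 1.88 ± 0.713 for nintedanib over control (adjusted p = 0.025; 1.61 and 0.051 without nintedanib replicate 8) and 3.42 ± 0.735 for vehicle over control (adjusted p = 0.00012; 2.61 and 0.00046 without vehicle replicate 4). For nintedanib over vehicle it was -1.54 ± 0.530 (adjusted p = 0.064 by edgeR, 0.041 by DESeq2), and leaving out any of 6 single mice moved the edgeR adjusted p to between 0.025 and 0.046. Without vehicle replicate 4, the mouse with 61.4 CPM, the difference was -0.76 (adjusted p = 0.33).

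Krt17 (chromosome 11, 100256217 to 100261029), a keratin of basal and wounded epithelium, lay at 0 to 4.52 CPM with a median of 0.226 in nintedanib, 0 to 13 with a median of 0.846 in vehicle and 0 to 0.553 with a median of 0.0616 in control mice. It reached 1 CPM in 5, 6 and 0 mice. It rose by 2.36 ± 0.995 in nintedanib mice (adjusted p = 0.043) and by 3.42 ± 0.982 in vehicle mice (adjusted p = 0.003) against control mice. The nintedanib call was lost on leaving out any of 13 single mice (adjusted p 0.050 to 0.099), and the vehicle value was 2.66 (adjusted p = 0.012, edgeR) without replicate 4. Without the Adipoq libraries, which leaves 2 control mice, Krt5, Krt14 and Krt17 passed in neither comparison with control.

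Krt6a (chromosome 15, 101689910 to 101694307), a wound keratin that failed the filter, had 20 counts in nintedanib, 66 in vehicle and 0 in control mice. Against a limit of 3 counts over the control group, its pooled level per counted read was 3.89-fold higher in nintedanib and 13.4-fold higher in vehicle mice. The limit allows for counting error in the control group only, not in the bleomycin counts or between mice. The counts came from 8 of 17 nintedanib and 9 of 16 vehicle mice. The highest levels were 0.473 CPM in nintedanib replicate 8 and 1.15 CPM in vehicle replicate 4. Krt16, the partner of Krt6a, had 19 counts in vehicle and 0 in control mice.

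Krt15 (chromosome 11, 100131758 to 100135928), a keratin of airway and skin basal cells, was distributed differently. It lay at 0.0567 to 162 CPM with a median of 0.333 in nintedanib mice, at 0 to 10.1 with a median of 0.430 in vehicle mice and at 0.0553 to 6.98 with a median of 1.23 in control mice. It reached 1 CPM in 4 nintedanib, 1 vehicle and 5 control mice. The log2 fold change of 3.54 ± 0.959 for nintedanib over vehicle (adjusted p = 0.020, edgeR) rested on nintedanib replicate 1, the mouse with 162 CPM: without it the value was 1.14 (adjusted p = 0.39), and only 7 of 17 nintedanib mice were above the vehicle median. Without vehicle replicate 4, the vehicle mouse with 10.1 CPM, it was 4.84 (adjusted p = 0.0046). Without the Adipoq libraries it was -1.76 (adjusted p = 0.13).

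The pairing of Krt5 with the other keratins differed between mice. The 4 nintedanib mice with Krt15 of at least 1 CPM, replicates 1, 7, 8 and 14, had 162, 16.3, 3.25 and 12.3 CPM of Krt15 beside 34.4, 4.47, 6.38 and 7.34 CPM of Krt5. Their Reg3g, an antimicrobial lectin of airway secretory cells, stood at 107, 96.4, 55.1 and 95.7 CPM, and all 4 held Adipoq. Krt14 reached 1 CPM in 15 of 17 nintedanib mice, among them all 6 with Krt5 of at least 1 CPM. One of these 6, replicate 3, which held no Adipoq, had 8.31 CPM of Krt5 and 7.01 of Krt14 beside 0.457 of Krt15. In vehicle mice Krt14 reached 1 CPM in 10 of 16, among them all 8 with Krt5 of at least 1 CPM. Vehicle replicates 4, 9, 15 and 16 had 60.4, 18, 11.9 and 9.40 CPM of Krt5 beside 61.4, 20.2, 17.4 and 11.7 CPM of Krt14, and outside replicate 4 their Krt15 was at most 0.746 CPM. Reg3g was at most 1.15 CPM in any vehicle mouse. Across nintedanib mice with Adipoq, Krt15 had a median of 12.3 CPM (5 mice), against 0.300 in those without (12 mice); in control mice the medians were 2.12 (8 mice) and 0.242 (2 mice). The part of other tissue in the Krt15 values was not tested.

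**Figure D5:**
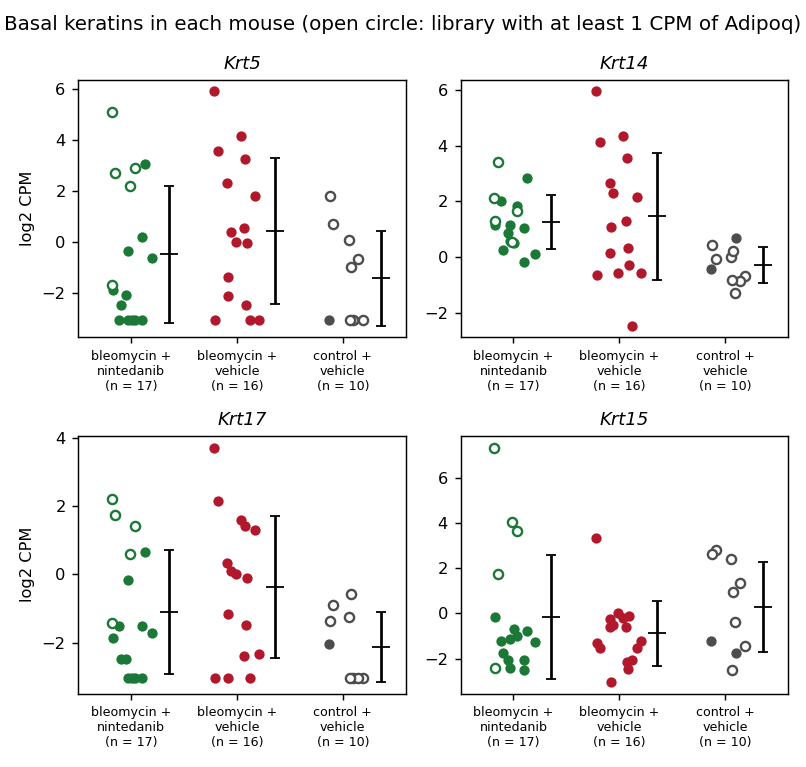
Log2 CPM (y axis) of 4 basal keratins in each mouse of 3 groups (x axis); open circles are libraries with at least 1 CPM of Adipoq, and the bar is the mean ± SD. Krt5, Krt14 and Krt17 are highest in 1 vehicle mouse (60.4, 61.4 and 13 CPM), and the nintedanib mice with Krt15 of at least 1 CPM are open circles.

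Vehicle replicate 4 stood apart for several members. Beside the highest Krt5, Krt14, Krt17 and Krt6a it had the highest Cldn4 (130 CPM) and Cldn6 (4.15 CPM) of all mice, and the lowest Cldn18 (643 CPM), Cldn3 (94.9 CPM) and Cldn7 (34.4 CPM) of the series. Its Krt8, at 395 CPM, was within the vehicle range, and its Ager, at 1270 CPM, was the lowest of all mice. Trp63, the basal cell transcription factor, was also highest there, at 5.29 CPM.

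Other basal cell genes went in both directions. Of 7 listed, 1 rose and 2 fell in nintedanib mice and 1 rose and 1 fell in vehicle mice against control mice. Among all genes tested, 28.1% rose and 25.1% fell in nintedanib and 29.5% rose and 28.3% fell in vehicle mice. Trim29, a TRIM protein of basal and squamous cells, rose by 1.57 ± 0.227 and 2.02 ± 0.232 in nintedanib and vehicle mice. Col17a1, a hemidesmosome collagen, fell in both, though in neither without the Adipoq libraries. Snai2, a zinc finger repressor, fell by 0.38 (standard error 0.101) in nintedanib mice and stood at -0.21 (adjusted p = 0.072, edgeR) in vehicle mice. Trp63 did not pass against control (log2 fold changes of 0.31 and 0.29, adjusted p 0.56 and 0.58, edgeR). The list summed to 27 to 71.0 CPM in nintedanib, 23.4 to 70.4 in vehicle and 23.2 to 34.5 in control mice.

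Keratins of stratified epithelium went in both directions, at low levels except for Krt80. Krt4, a keratin of mucosal surfaces, lay at 0.126 to 22.3 CPM with a median of 0.563 in nintedanib, 0.157 to 3.73 with a median of 0.797 in vehicle and 0 to 0.691 with a median of 0.131 in control mice. It rose by 3.05 ± 0.803 in nintedanib mice (1.41 without replicate 1, which had the 22.3 CPM) and by 2.35 ± 0.814 in vehicle mice. Krt79, a keratin of hair follicle and gland ducts, lay at 2.36 to 21.2 CPM with a median of 4.66 in nintedanib, 1.67 to 17.1 with a median of 6.09 in vehicle and 12.1 to 27 with a median of 16.8 in control mice. It fell by 1.21 and 1.45 on the log2 scale in nintedanib and vehicle mice, with 3 of 17 nintedanib mice and 1 of 16 vehicle mice within the control range. Krt80, a keratin of differentiating epithelia, lay at 111 to 193 CPM in nintedanib, 78.5 to 181 in vehicle and 147 to 207 in control mice. It fell by 0.41 in vehicle mice and stood at -0.23 in nintedanib mice (adjusted p = 0.056, edgeR; 0.023 to 0.046 on leaving out any of 14 single mice). Krt1, a suprabasal epidermal keratin that stayed under 1.3 CPM in every mouse, fell by 0.78 (adjusted p = 0.062 without control replicate 7) and 0.82, and its partner Krt10 passed in neither comparison. Krt1 passed in neither comparison without the Adipoq libraries, and Krt4 and Krt79 then passed in vehicle mice only.

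Among the remaining members, Cldn2 rose most. Cldn2 (chromosome X, 139800828 to 139811386), which forms a channel for cations in leaky epithelia, lay at 0.680 to 6.72 CPM with a median of 2.57 in nintedanib, 1.02 to 4.83 with a median of 2.04 in vehicle and 0.237 to 0.860 with a median of 0.553 in control mice. Every vehicle mouse and 15 of 17 nintedanib mice were above the highest control mouse. It rose by 2.38 ± 0.348 (adjusted p = 2.8e-07) and 2.35 ± 0.350 (adjusted p = 3.3e-07, edgeR) in nintedanib and vehicle mice. Its median was 5.32 CPM in the 5 nintedanib mice with Adipoq and 1.79 in the 12 without. Krt87, a hair-type keratin, rose by 0.97 ± 0.178 and 0.92 ± 0.180, and Cldn12 by 0.25 ± 0.054 and 0.13 ± 0.055. The vehicle value of Cldn12 lost its call with RLE size factors (adjusted p = 0.051) and on leaving out any of 13 single mice (0.053 to 0.22). Cldn23 fell by 0.61 in vehicle mice and stood at -0.33 in nintedanib mice (adjusted p = 0.081; 0.035 and 0.04 without nintedanib or control replicate 2), and Krt222, a keratin-like gene, fell by 1.05 and 0.91 in nintedanib and vehicle mice. Neither Krt222 nor Cldn23 passed against control without the Adipoq libraries. Cldn15, Cldn8 and Krt23 passed in no comparison.

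The proteins that work with these members were counted from fixed lists. Among all genes tested, 28.1% rose and 25.1% fell in nintedanib mice and 29.5% rose and 28.3% fell in vehicle mice against control mice. A count near these shares is not particular to its list. Of 10 tight junction partners, 6 rose in nintedanib and 5 in vehicle mice against control mice and 0 fell, among them Marveld3, a membrane protein of the junction, by 0.77 ± 0.078 and 0.63 ± 0.078, while Tjp1, the scaffold that anchors claudins, stood at -0.15 (adjusted p = 0.06) in vehicle mice. Of 8 tested desmosome genes, which tie keratins to the membrane, 4 rose in nintedanib and 3 in vehicle mice and Jup fell in both. Pkp1, a plakophilin of stratified cells, rose most, by 2.80 ± 0.957 and 4.0 ± 0.917, but passed in neither comparison without the Adipoq libraries. By that setting 4 and 2 tight junction partners and 2 and 1 desmosome genes rose in nintedanib and vehicle mice, and Jup passed in neither. Of 4 tested cornified envelope genes, 2 rose in nintedanib mice and 1 rose and 1 fell in vehicle mice against control mice. Tgm1, the transglutaminase that cross-links small proline-rich proteins, rose by 2.65 ± 0.267 and 3.08 ± 0.272 (adjusted p of at most 6.7e-11, edgeR). Ivl, the envelope protein involucrin, rose by 0.86 ± 0.299 in nintedanib mice and stood at 0.64 (adjusted p = 0.067) in vehicle mice, and Ppl, the plakin periplakin, fell by 0.23 (standard error 0.098, adjusted p = 0.044) in vehicle mice and stood at -0.003 in nintedanib mice; both calls were lost without the Adipoq libraries, and Ppl then passed between nintedanib and vehicle mice (0.32, adjusted p = 0.036). Of 8 regulators of epithelial genes, 2 rose in both comparisons with control, 1 fell in nintedanib mice and 2 fell in vehicle mice. Grhl3 and Elf3 rose in both, Grhl3 by 1.20 ± 0.208 and 1.29 ± 0.210, and Klf4 fell in both. Grhl1 fell by 0.31 (standard error 0.100, adjusted p = 0.008) in vehicle mice against control mice, rose by 0.35 ± 0.088 (adjusted p = 0.013) in nintedanib mice against vehicle mice and stood at 0.04 (adjusted p = 0.78, edgeR) in nintedanib mice against control mice. Its fall against control was lost without the Adipoq libraries (0.02, adjusted p = 0.96), while its rise was kept (0.35, adjusted p = 0.028).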

How the data were processed

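The authors deposited 1 table of whole-number read counts per gene, with a column for each mouse. The submitters' processing notes name the GRCm38 build, R 3.6.0 and STAR 2.7.0f without a role; which counting tool, strand setting or annotation was used is not given in the sources. Per the labels' protocols, libraries were directional and single-end. Without a stated strand setting, reads of overlapping antisense genes cannot be told apart, and reads of near-identical keratins or small proline-rich genes may have been divided or lost.

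Symbols, coordinates and exon lengths came from GENCODE annotation of GRCm38. Exon lengths are unions over transcripts, which understates the TPM of Krt7. Genes were kept with filterByExpr by group (minimum count 10, minimum total 15), leaving 14836 genes with 99.96% of counts. Tests used edgeR 4.0.16 (quasi-likelihood F test, TMM factors, robust dispersion, 1 coefficient per group over 43 libraries) in R 4.3.3, two-sided, with Benjamini-Hochberg adjustment over all tested genes. The test was checked on simulated counts in which a small share of genes was changed in vehicle mice. That check does not cover changes in as many genes as here against control, nor single extreme mice. Per-mouse log2 CPM used a prior count of 2. Confidence intervals are 95%. DESeq2 1.42.0 was an alternative; recomputing the gene lists without the Adipoq libraries was chosen after seeing the data. Correlations used Python 3.11.15 and permutation with 100000 resamples.

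Members, roles and gene lists were chosen with earlier results of these data known. The text names every tested member with a role, other tested members called in any comparison, up to 3 called genes per list with the largest change against control, and 12 fixed marker genes; Krt6a, Krt16, Cldn6, Krt10, Cldn8, Cldn15, Krt23, Muc5b, Scgb3a1, Elf3, Snai2 and Ivl were named after their values were seen.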

Additional observations from a re-analysis of the deposited data

Results flagged for a closer look

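Each of 25 named members was checked for a single control mouse that lay apart from the other 9, and 2 did so; chance flags about 1 in 20 groups. Cldn18 was highest in control replicate 5, at 10 log2 CPM. Krt222 was lowest in control replicate 7, at -1.17 log2 CPM. The nintedanib and vehicle groups hold more than 10 mice and were not checked in this way.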

How the results depend on the processing

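Of 593 member values recomputed under 8 alternatives, 536 kept their direction and their side of the threshold. For nintedanib against vehicle, the count of higher members was 1 with library totals as scaling, 0 with only the 2 groups compared and 1 without the Adipoq libraries. The member higher without the Adipoq libraries was neither Cldn10 nor Krt15, so neither main call was kept there. The count of lower members was 2 with DESeq2, and leaving out single mice gave 0 to 2 higher and 0 to 3 lower. For vehicle against control, 24 members were higher with no filter on low counts, and 3 were lower without the Adipoq libraries; single exclusions gave 14 to 16 higher and 6 to 7 lower. The setting without a filter also tests members with few counts, and 8915 of 19605 genes were called there in either direction. Without the Adipoq libraries 3654 of 15276 genes were called. For nintedanib against control, 7 were lower with library totals and 1 without the Adipoq libraries; single exclusions gave 13 to 15 higher and 3 to 6 lower.

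Between nintedanib and vehicle, the sign of the log2 fold change turned within the largest name series for Cldn2 (-0.15), Cldn5 (0.049), Cldn7 (0.015) and Krt1 (-0.001), with the series as covariate for Cldn2 (-0.021), with DESeq2 for Krt4 (-0.959), and without the Adipoq libraries for Cldn2 (-0.458), Krt1 (-0.214), Krt15 (-1.76), Krt4 (-1.205), Krt87 (-0.035) and Sprr1a (-0.022). Against control it turned without the Adipoq libraries in vehicle mice for Krt1 (0.084) and Krt15 (2.03), and with DESeq2 in nintedanib mice for Krt15 (-0.186). Within the largest name series Krt15 was 3.47 between nintedanib and vehicle (adjusted p = 0.066). In nintedanib mice without Adipoq, r of Krt8 was 0.615 with Krt19 (adjusted p = 0.049) and -0.0159 with Sprr1a. The cause of these changes was not tested, beyond the fewer control mice that the Adipoq setting leaves. No paired analysis was possible because the labels number no replicates across groups. Members with medians under 1 CPM rest on few counts per mouse.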
